A study of Hordeum vulgare with 2 samples.

Results

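Citric acid cycle and organic acid enzymes were represented by 6 cysteine peptides from 5 protein entries, among 210 peptides measured in extracts of germinated barley embryo. A peptide was taken if its deposited protein name held any of 10 enzyme words, and 5 of those words found a peptide. The words were chosen with earlier results of these data known. Isocitrate, aconit, citrate synthase, pyruvate dehydrogenase and ATP synthase found 0 peptides. The entries are dihydrolipoyl dehydrogenase (gi|149391531), the alpha 1 subunit of succinyl-CoA ligase, the flavoprotein subunit of succinate dehydrogenase, NADP-dependent malic enzyme (MAOC_ORYSJ) with 2 peptides, and cytosolic malate dehydrogenase. All 6 peptides were seen in the blocked run, among its 199, and 2 of them in the control run, among its 93.

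Embryos of the malting cultivar Barke were dissected 48 h into germination, and free thiols in their protein extract were alkylated with iodoacetamide (IAM) during extraction. In the blocked run, portions incubated for 1 h with thioredoxin (Trx) or without it were then given 10 mM IAM to cap the cysteines that Trx had reduced. In the control run the IAM after the incubation was omitted. Remaining cysteines were reduced chemically and given an isotope-coded affinity tag (ICAT), light in the arm with Trx and heavy in the arm without it, so that in the blocked run a cysteine reduced by Trx has a heavy/light ratio above 1. The labels disagree on 1 point, since the control is untreated by its source name, while its description gives it arms with and without Trx. Each run is 1 sample, so the differences below have no replicate check and no p-value, and ± is the authors' SD of the ratios of 1 peptide within a run. How many ratios an average rests on is unknown, and the files hold no counts, so no depth can be given for a ratio.

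The citric acid cycle oxidises acetyl groups in the mitochondrial matrix and passes their electrons to the respiratory chain, and in a germinating embryo it burns carbon mobilised from the seed reserves. Malate dehydrogenases and malic enzymes convert malate on both sides of organelle membranes. Trx is a small protein with a reactive cysteine pair that reduces disulfides in other proteins. The chloroplast NADP-dependent malate dehydrogenase is a classical Trx-activated enzyme, and plant mitochondria have a Trx system of their own. The deposited name of the malate dehydrogenase measured here is the cytosolic one.

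The tagged cysteines lie in the following residues, shown because the ratio of a peptide reports on these cysteines and on no others of the enzyme. Peptides of up to 13 residues are given whole, and longer ones as the stretch of up to 6 residues on either side of the cysteine.
Dihydrolipoyl dehydrogenase, whole peptide: TCHAHPTVSEALK
Succinyl-CoA ligase alpha 1, residues 1 to 12 of 16: LIGPNCPGIIKP
Succinyl-CoA ligase alpha 1, residues 9 to 16 of 16: IIKPGECK
Succinate dehydrogenase flavoprotein, residues 8 to 17 of 17: HGFNTACITK
Malic enzyme (NADP-dependent), residues 3 to 15 of 18: GLGDLGCQGMGIP
Malic enzyme (NADP-dependent), whole peptide of 12: YAESCMYTPVYR
Cytosolic malate dehydrogenase, residues 8 to 15 of 15: AHAAPNCK
Apart from the ligase peptide, which has 2 cysteines, each holds 1. The number of tags listed equals the number of cysteines in all 6, so the ligase ratio is that of the peptide tagged on both. Of the 6 peptides 4 were matched to rice entries, 1 to a tomato entry and 1 to a barley sequence named after wheat. The dihydrolipoyl dehydrogenase peptide also fitted 6 other accessions, the ligase peptide 2 and the succinate dehydrogenase peptide 2. The organelle in a name is thus that of the matched entry, and forms of an enzyme that share the peptide cannot be told apart.

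Dihydrolipoyl dehydrogenase and succinyl-CoA ligase stood high in the blocked run, and the other 4 peptides stood among its middle and low ratios. The spread of all control peptides gave a yardstick: their mean ± 2 SD on the log2 scale corresponds to ratios of 0.822 to 1.24. Of the 6 peptides 2 lay above this upper limit, 4 within the limits and 0 below. Over the whole blocked run 101 of 199 peptides lay above it (50.8%), and over the control run 2 of 93 (2.15%). Both control values among the 6 peptides lay within. The median ratio of the 6 peptides was 1.09, against 1.25 over all 199. Both the share above the limit and the median were lower than those of the run, and with 6 peptides neither is read as particular to these enzymes.

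**Figure D1:**
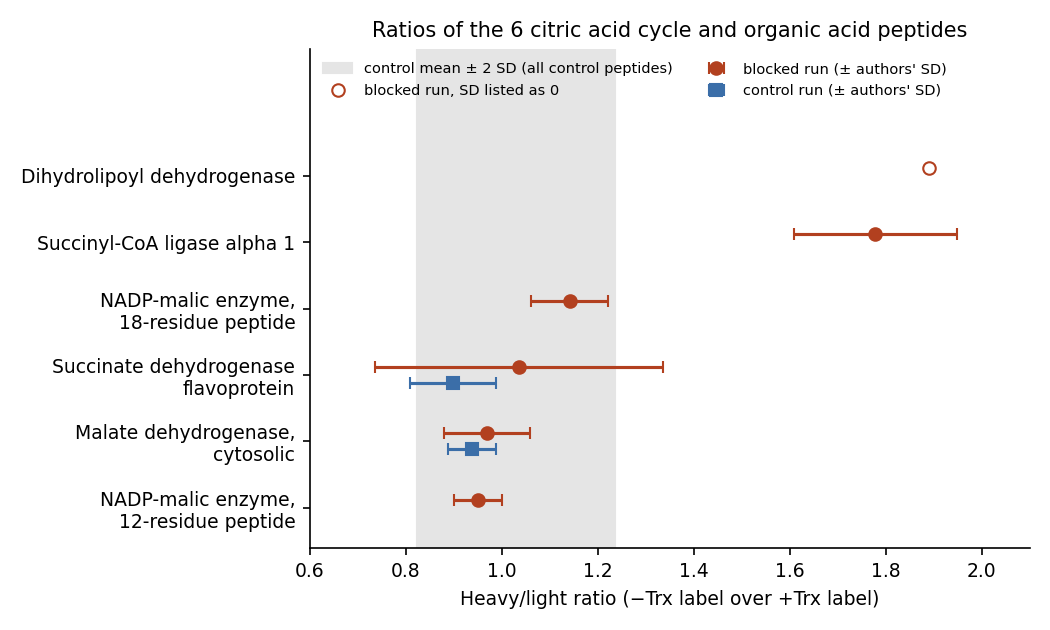
Heavy/light ratio (x axis) of each of the 6 peptides (rows) in the blocked run (red circles, open where the SD is listed as 0) and the control run (blue squares), with the authors' SD as bars; the grey band is the control mean ± 2 SD over all control peptides, 0.822 to 1.24. Dihydrolipoyl dehydrogenase at 1.89 and succinyl-CoA ligase at 1.78 lie to the right of the band, and the centres of all other points lie inside it.

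Dihydrolipoyl dehydrogenase is the flavoprotein (E3) that reoxidises the lipoyl groups of the pyruvate and 2-oxoglutarate dehydrogenase complexes and of glycine decarboxylase. Its peptide had a ratio of 1.89 in the blocked run, which placed it at rank 11 of 199, counted from the highest. That is 1.53 times the upper limit, and an apparent loss of 47.1% of the light label, computed as 1 minus light/heavy and given in percent. This loss and those below take a ratio of 1 as no loss, although the median ratio of the blocked run was 1.25. Relative to that median the peptide stood at 1.51. Among the 186 peptides with 1 cysteine it ranked 8. The SD is listed as 0, as for 27 peptides of the run, so its error is unknown. Of those 27 peptides 18 lay above the upper limit.

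Dihydrolipoyl dehydrogenases work through a redox-active pair of cysteines near the N terminus. The peptide measured here is another part of the enzyme, the conserved His-Pro stretch near the C terminus that carries the catalytic base. Its ratio therefore says nothing direct about the active-site pair. The peptide was not among those of the control run, so no value without the block can be set beside it. The highest ratio of any control peptide was 1.42, and 77 of the 199 blocked peptides exceeded it (38.7%), among them this peptide and that of the ligase. A fixed ratio of 1.5 was likewise exceeded by these 2 of the 6 and by 65 of the 199 (32.7%).

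Succinyl-CoA ligase makes a nucleoside triphosphate from succinyl-CoA and is the step of the cycle with substrate-level phosphorylation. The peptide of its alpha 1 subunit had 1.78 ± 0.17 in the blocked run (rank 17), an apparent label loss of 43.8%, or 37.8% to 48.7% across the SD range. The lower end of that range, 1.61, also lay above the upper limit. Over the whole run, 71 of the 172 peptides with an SD above 0 had the same (41.3%). Because 2 cysteines share the peptide, this loss is not a loss per cysteine. Relative to the run median the peptide stood at 1.42. Peptides with 2 cysteines ran high as a class, with 9 of 12 above the limit (75%) and a median of 1.66, against 91 of 186 (48.9%) and a median of 1.23 for peptides with 1 cysteine. The ligase peptide ranked 4 among those 12. It too had no value in the control run. The ranges of ratio ± SD did not meet between the ligase and any of the 4 lower peptides. Ranges of 2 SD also stayed apart for 3 of these comparisons and overlapped for succinate dehydrogenase. How often ranges are apart between other peptides of the run was not computed.

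Succinate dehydrogenase passes electrons from succinate to ubiquinone, and its flavoprotein subunit holds the covalently bound FAD. The peptide lies in the flavin-binding part of the subunit. It had 1.04 ± 0.30 in the blocked run (rank 168 of 199) and 0.898 ± 0.09 in the control run (rank 82 of 93). Both values were within the limits and the SD ranges overlapped. The SD of 0.30 ranked 5 in size among the 199 of the run, whose median over SDs above 0 was 0.10, so this ratio is the least precise of the 5 that have an SD above 0. The SD range, 0.736 to 1.34, reached beyond both limits. The blocked ratio was 1.15-fold the control ratio, with an SD range of 0.849 to 1.57-fold when the errors of both runs are combined. This fold leaves room both for no difference and for a difference larger than the median of shared peptides.

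Cytosolic malate dehydrogenase interconverts malate and oxaloacetate with NAD. Its peptide had 0.969 ± 0.09 in the blocked run (rank 189 of 199) and 0.938 ± 0.05 in the control run (rank 73 of 93), both within the limits and with overlapping SD ranges. The blocked ratio was 1.03-fold the control ratio, with a combined SD range of 0.928 to 1.15-fold. This comparison mixes matched forms, since the peptide was matched in its heavy form in the blocked run and in its light form in the control run, while succinate dehydrogenase was matched in the heavy form in both. This was the highest-scoring of the 6 peptides, with a Mascot ion score of 118 in the blocked run, the highest of that run, and 51 in the control run.

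For 81 of the 82 peptides seen in both runs the ratio was higher in the blocked run (98.8%), with a median of 1.24-fold, so that a higher ratio in the blocked run was the rule and not a mark of these enzymes. Succinate dehydrogenase ranked 55 and malate dehydrogenase 76 in the size of that difference. SD ranges were apart for 43 of the 69 shared peptides that have an SD above 0 in both runs (62.3%), and overlapped for both of these. The run medians differ by 0.30 on the log2 scale, and relative to them the direction turned. Succinate dehydrogenase then stood at 0.829 of the blocked median and 0.888 of the control median, and malate dehydrogenase at 0.776 of the blocked and 0.928 of the control median. No SD ranges were computed for these centred values, and the overlap given above is that of the uncentred ratios.

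**Figure D2:**
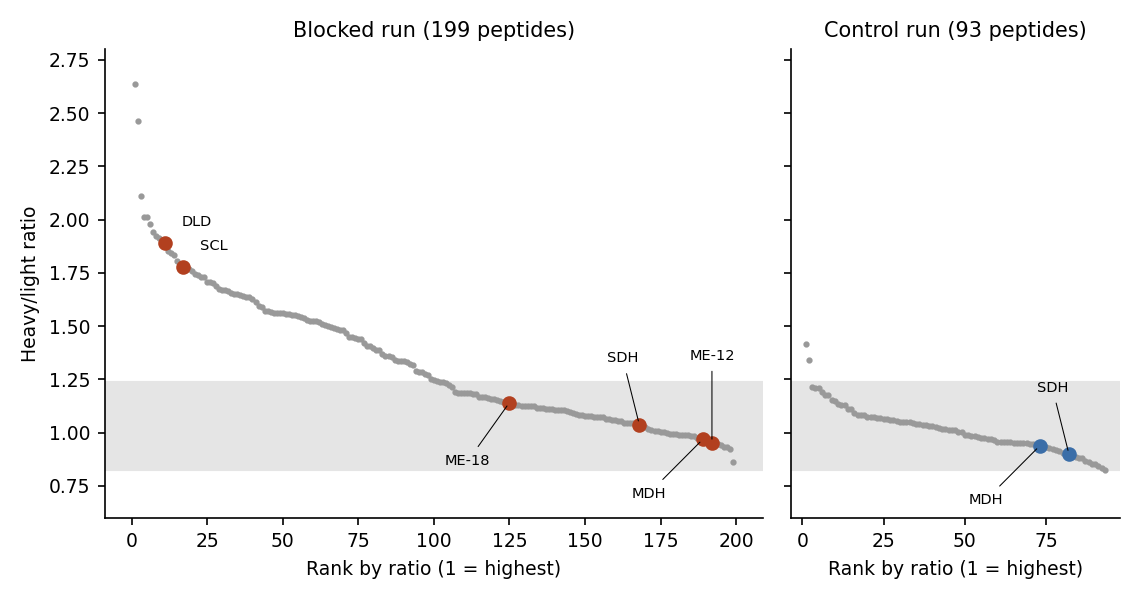
Heavy/light ratio (y axis) of every peptide against its rank (x axis, 1 is the highest) in the blocked run (left) and the control run (right), with the citric acid cycle and organic acid peptides coloured and the control limits as a grey band. DLD is dihydrolipoyl dehydrogenase, SCL succinyl-CoA ligase, SDH succinate dehydrogenase, MDH malate dehydrogenase, and ME-18 and ME-12 the malic enzyme peptides of 18 and 12 residues; DLD and SCL sit at ranks 11 and 17 and the others at ranks 125 to 192, and SDH and MDH are low in the control run too, at ranks 82 and 73.

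NADP-dependent malic enzyme decarboxylates malate to pyruvate and yields NADPH. It was the only one of the 5 entries with more than 1 peptide. The peptide of 18 residues, which holds a Gly-x-Gly-x-x-Gly pattern of the kind found in dinucleotide-binding folds, had 1.14 ± 0.08 (rank 125). That pattern occurred in 3 of the 199 peptides of the run (1.51%), the others belonging to ribosomal protein L4 and a cyclophilin. The peptide of 12 residues had 0.950 ± 0.05 (rank 192). Both lay within the limits and neither had a value in the control run. The longer peptide was 1.20-fold higher, 0.26 on the log2 scale with a combined SD of 0.13. Peptides of enolase differed more, from 1.34 ± 0.24 to 2.46 ± 0.29. Those of triosephosphate isomerase were closer, at 1.06 ± 0.08 and 1.10 ± 0.12. How usual such a difference is within an entry was not computed. For the malic enzyme peptides the ranges compare as follows. They were apart at 1 SD, 1.06 to 1.22 and 0.900 to 1.00, and overlapped at 2 SD, 0.981 to 1.30 and 0.850 to 1.05. The apparent label loss of the longer peptide was 12.4%, or 5.75% to 18.1% across its SD range, while the ratio of the shorter one was below 1. Relative to the run median the longer peptide stood at 0.914 and the shorter at 0.761. Both were matched with an oxidised methionine, the longer in its light form and the shorter in its heavy form.

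In order of ratio the 6 peptides thus ran from dihydrolipoyl dehydrogenase and the ligase through the longer malic enzyme peptide, succinate dehydrogenase and malate dehydrogenase to the shorter malic enzyme peptide. Of the 15 pairs, 10 have an SD above 0 on both sides, and their ranges were apart for 6 at 1 SD and for 3 at 2 SD. The same share over all pairs of peptides of the run was not computed. These counts are therefore not read as particular to these enzymes. The step between the ligase and the longer malic enzyme peptide, 1.56-fold, was the only one between neighbours with ranges apart. Each neighbouring pair below it overlapped, and the pair of dihydrolipoyl dehydrogenase and the ligase could not be read because of the SD of 0.

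The identifications behind these ratios were weaker than those of the run as a whole. Scores were 30 for dihydrolipoyl dehydrogenase, 22 for the ligase, 27 for succinate dehydrogenase and 26 and 21 for the malic enzyme peptides of 18 and 12 residues. Thus 5 of the 6 peptides scored 30 or less, against 48 of all 199 (24.1%), and the authors accepted scores from 20. Both peptides above the limit are among the 5. In the run as a whole, 23 of 48 peptides with a score of 30 or less lay above the limit (47.9%), and 78 of 151 with a higher score (51.7%). The succinate dehydrogenase peptide was found again in the control run, with a score of 21.

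**Figure D3:**
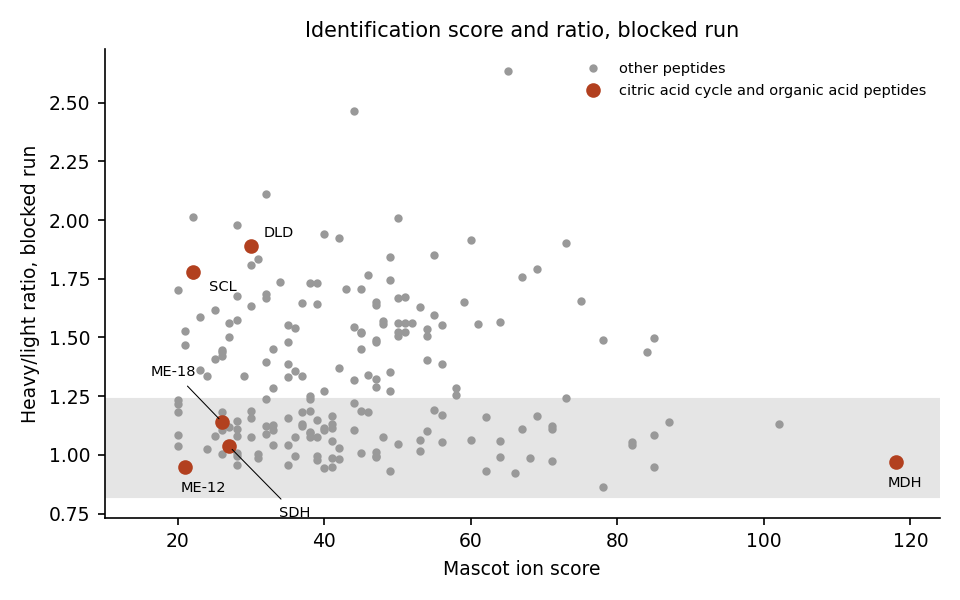
Heavy/light ratio in the blocked run (y axis) against the Mascot ion score of the match (x axis) for all 199 peptides, with the 6 citric acid cycle and organic acid peptides in red, short names as in the plot of ranks, and the control limits as a grey band. Malate dehydrogenase has the highest score of the run, 118, while the other 5 score 21 to 30.

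The form in which a peptide was matched also moved with its ratio. Of the 6 peptides 5 were matched in the heavy form, the exception being the longer malic enzyme peptide. In the blocked run 74 of 119 heavy-form peptides lay above the limit (62.2%, median 1.39), against 27 of 80 light-form peptides (33.8%, median 1.15). In the control run the medians were 1.02 for 48 heavy-form and 0.985 for 45 light-form peptides. Among the 110 heavy-form peptides with 1 cysteine in the blocked run, dihydrolipoyl dehydrogenase ranked 6, succinate dehydrogenase 97 and malate dehydrogenase 102. The part of the matched form in these ratios was not tested.

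Other enzymes of carbon metabolism, taken by a list of names for glycolysis, fermentation and the enzymes that feed organic acids, gave 22 further peptides in the blocked run. Of these 11 lay above the limit (50%), with a median of 1.28. The list found no fumarase, 2-oxoglutarate dehydrogenase, isocitrate lyase, malate synthase or phosphoenolpyruvate carboxylase by name. Its highest peptide was 1 of enolase, which makes phosphoenolpyruvate, at 2.46 ± 0.29 (2 cysteines). Other enolase peptides, with 1 cysteine each, had 1.39 with an SD listed as 0 and 1.34 ± 0.24, at ranks 81 and 89. After the highest came alcohol dehydrogenase 1, which regenerates NAD in fermentation, at 2.11 ± 0.14. A pyruvate kinase-like entry followed at 1.73 with an SD listed as 0. Its lowest were a 2-dehydro-3-deoxyphosphooctonate aldolase at 0.987 ± 0.09, an allyl alcohol dehydrogenase at 1.01 ± 0.04 and cytoplasmic fructose-bisphosphate aldolase at 1.01 ± 0.10. Another peptide of the 2-dehydro-3-deoxyphosphooctonate aldolase had 1.10 ± 0.13. That enzyme acts in cell wall sugar synthesis, so that the words took in enzymes outside central carbon metabolism. Such enzymes also lay above the limit, with an enzyme of amino acid synthesis at 1.615 ± 0.08 and one of betaine synthesis at 1.45 ± 0.09. The share above the limit and the median of the list are thus not those of central carbon metabolism alone. Dihydrolipoyl dehydrogenase and the ligase lay between alcohol dehydrogenase 1 and the pyruvate kinase-like peptide, and malate dehydrogenase and the shorter malic enzyme peptide lay below every peptide of the list.

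Few peptides had names that place them in mitochondria, and their range depends on which names hold the word. There were 5 in the blocked run: succinate dehydrogenase, 3 of the chaperonin CPN60-1, which folds imported proteins, at 1.11 ± 0.06, 1.16 ± 0.14 and 1.16 ± 0.08, and serine hydroxymethyltransferase of one-carbon metabolism at 1.18 ± 0.14. All 5 lay within the limits, while 101 of the 199 peptides of the run lay above the upper one (50.8%). The deposited names of dihydrolipoyl dehydrogenase and succinyl-CoA ligase give no location. For lack of a location in the name, these peptides, at 1.89 and 1.78, are not counted with the 5. Plants have both mitochondrial and plastid forms of dihydrolipoyl dehydrogenase, and its peptide does not settle which was measured. Besides malic enzyme, names with chloroplast were those of a ketol-acid reductoisomerase, of branched-chain amino acid synthesis, at 1.27 ± 0.14 and of the large subunit 1 of ADP-glucose pyrophosphorylase, of starch synthesis, at 1.04 ± 0.11. The extract also carried 5 peptides taken by a list of words for embryo proteins. That list includes PER1, a peroxiredoxin whose deposited name does not mention the embryo. Words for proteins of other seed tissue (hordein, amylase, serpin and avenin) took 5 more, so the enzymes cannot be assigned to the embryo alone.

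**Figure D4:**
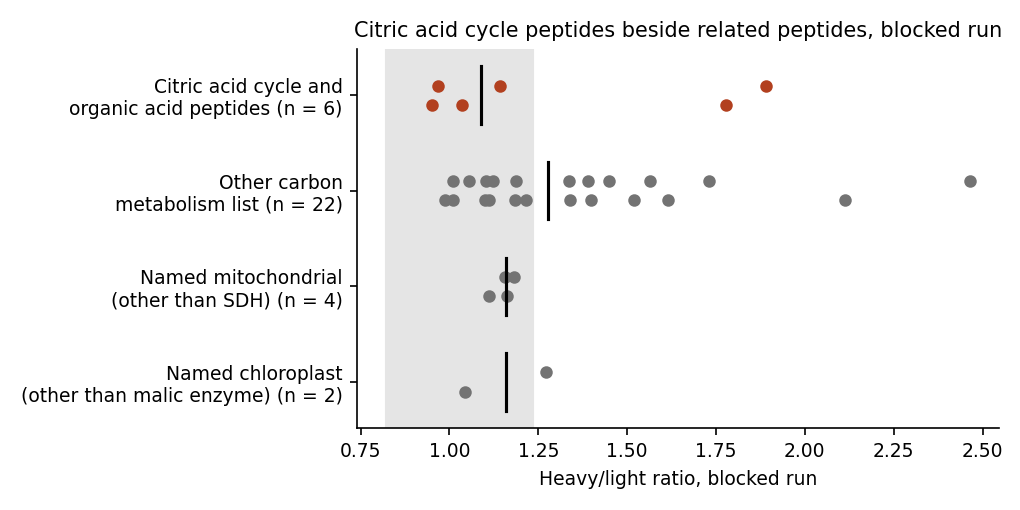
Heavy/light ratio in the blocked run (x axis) of the 6 citric acid cycle and organic acid peptides (red), the 22 peptides of the other carbon metabolism list, the 4 further peptides named mitochondrial and the 2 further peptides named chloroplast (grey), with medians as black lines and the control limits as a grey band. The 6 peptides fall into a pair at 1.78 and 1.89 and a set of 4 from 0.950 to 1.14, while the 4 further peptides named mitochondrial lie at 1.11 to 1.18.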

How the data were processed

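The files are 1 peptide table per run. Per the series description deposited with them, peak lists came from the Mascot script 1.6b20 for Analyst QS 2.0. These were searched with Mascot against green plant Swiss-Prot 54.6, a public non-redundant collection and the barley gene index 9.0, MSQuant 1.4.3a12 gave the ratios, spectra were inspected by hand, and matches from a score of 20 with a tag of 3 residues were kept. The deposited heavy/light ratio is the authors' average per peptide. The authors' SD of each peptide is a signal-type value, never negative, in ratio units. The score, as deposited, is Mascot's ion score of the match. Whether the ratios were centred is not stated there.

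Tables were joined on peptide sequence with pandas 2.3.3. Log2 ratios were set against the control mean ± 2 SD over its 93 peptides, a method tested on simulated data. The simulated unshifted peptides had the same mean in both runs. It therefore did not test the limits under a shift of the whole run, and the run medians here differ by 0.30 on the log2 scale. The SD of a log2 difference combines both authors' SDs to first order. The masses that Mascot calculated for all 199 and 93 peptides fitted the listed sequence and tags within 20 ppm, computed with pyteomics 5.0.1. That checks how sequences and tags were read and says nothing about the identifications. Measured masses deviated by -27.4 to 23.3 ppm in the blocked run and by -25.4 to 56.2 ppm in the control run. All 6 peptides are named. Of the carbon metabolism list at most 6 other entries are named, highest and lowest first, beside peptides that a result is set against. The members and lists were chosen with earlier results of these data known. None of the 5 entries matched the RefSeq gene table, so no genome position is given. Alternatives were other limits, a score of at least 40, peptides with 1 cysteine, 1 value per entry, centring, and ranges of 2 SD.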

Additional observations from a re-analysis of the deposited data

How the results depend on the processing

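The 2 peptides above the limit, dihydrolipoyl dehydrogenase and succinyl-CoA ligase, gave a count of 2 with the control mean and 3 SD (upper limit 1.37), a scaled median absolute deviation (1.21), the highest control peptide (1.42), a fixed ratio of 1.5, 1 value per entry and each run centred on its median. The count was also 2 under choices made after seeing the data, with every blocked ratio lowered 1.11-fold (the median rise among shared peptides inside the limits), and with heavy-form peptides only. It was 0 with a score of at least 40, which leaves malate dehydrogenase alone, and 1 with peptides of 1 cysteine, which leaves out the ligase. The median ratio of 1.09 was 0.969 to 1.04 with fewer peptides or 1 value per entry. With each run centred on its median it was 0.870, below 1 and below the lowest of the 6 uncentred ratios, since it is then relative to the median of the blocked run. The median log2 difference between the runs for the 2 shared peptides, 0.13, became -0.18 when each run was centred on its median, because the run medians differ by 0.30. The log2 difference of 0.26 between the malic enzyme peptides had ranges apart at 1 SD that overlapped at 2 SD. No paired analysis was possible because each group is 1 sample.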
